A study of Mus musculus with 4 samples.

Results

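The vacuolar H+-ATPase (V-ATPase) isoform genes of the mouse prostate epithelium were examined: 10 genes that encode alternative versions of 4 subunits of this proton pump, among 49671 genes measured. They were the paralogs of subunit C (Atp6v1c1 and Atp6v1c2), subunit B (Atp6v1b1 and Atp6v1b2), subunit a (Atp6v0a1, Atp6v0a2, Tcirg1 and Atp6v0a4) and subunit d (Atp6v0d1 and Atp6v0d2). The set was drawn up because Atp6v1c2 was far higher in luminal than in basal cells. The levels of the 10 genes in this contrast are therefore given as a description. An adjusted p printed for Atp6v1c2 comes from the fit over all genes and is no test of the set.

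RNA was sequenced from 2 libraries of basal cells (EpCAM high, CD49f high; replicates 1 and 3) and 2 of luminal cells (EpCAM high, CD49f low; replicates 3 and 2). Both came from the cut tips of the ventral lobe of untreated male CD-1 mice, of mixed background by the methods. The labels give an age between postnatal day 10 and 13, and the methods a slightly narrower range. Living cells were sorted after removal of CD45+, CD31+ and CD140a+ cells, from tissue of several mice, and neither the labels nor the methods tie a library to an animal or a pool. The comparison asks how basal cells at the tips, which are multipotent, and the luminal cells derived from them differ in RNA abundance. Values are read counts per gene scaled by the authors to a common total. The depth estimated from the spacing of these values was 3194295 and 3080661 reads on genes in the basal libraries, and 1036603 and 643195 in the luminal ones. A single read was therefore worth 6.26 and 6.49 units in the basal libraries but 19.4 and 31.2 units in the luminal libraries. Where 4 values follow each other below, they are ordered as basal replicate 1, basal replicate 3, luminal replicate 3, luminal replicate 2.

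The labelled cell types carried their defining markers. The basal keratins Krt5 and Krt14, the basal transcription factor Trp63 and Itga6 (the integrin chain CD49f used in the sort) were lower in luminal cells, with log2 differences (luminal minus basal) of -7.64, -6.76, -6.14 and -2.21 (limma with Benjamini-Hochberg adjustment, adjusted p = 0.00613, 0.00613, 0.0354 and 0.0410). The luminal keratins Krt8 and Krt18 had log2 differences of 1.55 and 1.17 that did not pass 0.05 (limma, Benjamini-Hochberg adjusted p = 0.0705 and 0.0965). Stromal transcripts were present in all 4 libraries, with summed normalized values over 12 genes of 135481, 264318, 83037 and 263510, and the sums overlapped between the groups. Within the list, both basal libraries were higher for the proteoglycan gene Dcn (45830, 47724, 5770 and 20256) and both luminal libraries for the muscle gene Des (820, 1715, 3207 and 2834), and neither passed (limma, Benjamini-Hochberg adjusted p = 0.143 and 0.156). Pdgfra, which encodes the CD140a antigen excluded in the sort, was at 3307, 4144, 2575 and 8383. The share of the signal in nuclear protein-coding genes was 76.0%, 74.7%, 57.3% and 64.2%, lower in both luminal libraries. The stromal gene with the highest mean over the 4 libraries was the collagen gene Col3a1, at 21951, 56494, 24919 and 73139. In basal replicate 1 it was below Dcn. The 6 endothelial markers summed to 1585, 1591, 600 and 1745. Pecam1, which encodes the CD31 antigen excluded in the sort, had the highest mean of these over the 4 libraries, at 833, 637, 174 and 499.

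V-ATPases couple ATP hydrolysis in a cytosolic V1 sector to proton transport through a membrane-embedded V0 sector, and acidify lysosomes, endosomes, the Golgi and secretory vesicles. In proton-secreting epithelia such as the kidney collecting duct and the epididymis they also work at the plasma membrane. In V1, subunits A and B form the catalytic ring, and subunit C is the clasp that joins V1 to V0 and is released when the pump comes apart. In V0, subunit a carries the proton channels and helps to set the membrane the pump is sent to, and subunit d links the rotating ring of c subunits to the stalk. Atp6v1c1, Atp6v1b2, Atp6v0a1, Atp6v0a2 and Atp6v0d1 are broadly expressed, whereas Atp6v1c2, Atp6v1b1, Atp6v0a4 and Atp6v0d2 are known for restricted expression in tissues such as kidney, lung, epididymis and bone.

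The sequences of the C pair show what separates the genes counted here. Atp6v1c1 (ENSMUSG00000022295) lies on chromosome 15 at 38661933 to 38692446, and Atp6v1c2 (ENSMUSG00000020566) on chromosome 12 at 17284721 to 17329359, both on GRCm38. Their coding sequences, of 1146 and 1281 nucleotides in the transcripts compared, were identical at 66.5% of aligned bases, and no stretch of 50 bases was shared between any of the 10 genes. This Atp6v1c2 transcript contains a coding exon of 138 nucleotides, or 46 codons, at coding positions 826 to 963, none of whose bases had a partner in Atp6v1c1 in the alignment. An annotated transcript of 1143 coding nucleotides lacks this exon, and values per gene do not tell the forms apart. It is shown in coding direction because it is the largest stretch of Atp6v1c2 without a counterpart in Atp6v1c1 (GRCm38 chr12:17288996-17289133, minus strand).
Atp6v1c2 exon: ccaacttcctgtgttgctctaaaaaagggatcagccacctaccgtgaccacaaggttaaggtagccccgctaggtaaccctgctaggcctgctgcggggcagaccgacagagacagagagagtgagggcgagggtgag

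The 250 bases before the RefSeq start of Atp6v1c2 (GRCm38.p6 chr12:17324731-17324980, minus strand, sequence from RefSeq) are shown because this gene carried the difference between the cell types. They overlap no annotated exon of the gene, although the annotated gene reaches further upstream. Capitals mark, in order from the 5′ end, the octamer ATGCAAAT, the A-rich element ATAAAA and the GC box GGGCGG. The motifs were picked after this sequence had been read.
Atp6v1c2 upstream: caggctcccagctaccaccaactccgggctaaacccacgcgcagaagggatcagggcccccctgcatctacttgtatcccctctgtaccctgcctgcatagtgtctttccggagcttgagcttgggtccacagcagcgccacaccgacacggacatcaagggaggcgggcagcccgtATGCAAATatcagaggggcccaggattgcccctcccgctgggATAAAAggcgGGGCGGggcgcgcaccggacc

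On either strand, ATGCAAAT was found in 1.60% of 32851 mouse promoter windows of RefSeq (250 bases before to 50 after a start), ATAAAA in 17.0% and GGGCGG in 32.7%. RefSeq windows were matched for 6 of the 10 genes. Among these, GGGCGG was also found for Atp6v0a1 and Tcirg1, while ATGCAAAT and ATAAAA were found for Atp6v1c2 alone. The forkhead motif TGTTTAC (3.17% of all windows) was found for Atp6v1b1, and CCAAT (33.8%) in 1 of the windows of Tcirg1. The E-box CACGTG (6.02%), the longer TCACGTGA that contains it (0.785%) and TATAAA (12.4%), which can share letters with ATAAAA, had no match in these windows. The same held for AGAACA (16.1%), which is only a half-site of the longer androgen receptor element. The matches are descriptions of letters only.

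Of the 10 genes, 8 passed the filter on low values. Atp6v0d2 was at 0 in all libraries and Atp6v1b1 was too low. Both luminal libraries lay above both basal libraries for 5 of the 8 (Atp6v1c2, Atp6v1b2, Atp6v0a1, Atp6v0a2 and Atp6v0a4), against 23.6% of all 18737 genes kept. The reverse held for 1 (Atp6v0d1), against 27.3% of all genes kept, so that 6 of the 8 did not overlap, against 50.9%. A fold of 2 or more higher in luminal cells was reached by 2 (Atp6v1c2 and Atp6v0a4), against 18.3% of all genes. In the fit over all genes, 1 (Atp6v1c2, the gene the set was chosen on) had an adjusted p under 0.05 (limma, Benjamini-Hochberg), against 0.694% of all genes in either direction and 0.256% towards luminal cells, and it no longer did when any 1 of the 4 libraries was left out, in fits whose spread comes from the other group alone and whose log2 differences were 3.29 to 4.17. These counts are no test of the set and nothing is read from them, since the set was chosen on this contrast and the filter keeps a gene that is high in 1 group only.

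**Figure D1:**
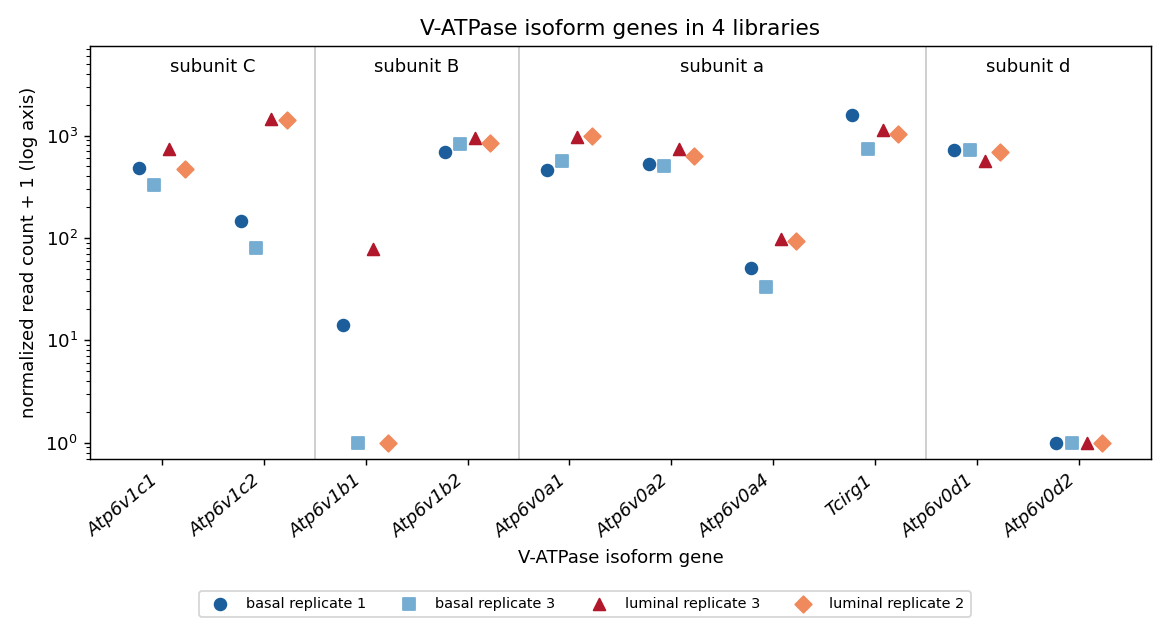
Normalized read count plus 1 (log axis) of the 10 V-ATPase isoform genes, grouped by subunit, with 1 point for each of the 4 libraries. Atp6v1c2 sits at 1433 and 1402 in the luminal libraries and at 144 and 78 in the basal libraries, while Atp6v0d2 is at 0 in all 4.

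Within each library, Atp6v1c1 was the more abundant C gene per kilobase in both basal libraries and Atp6v1c2 in both luminal libraries. The values of Atp6v1c2 were 144 and 78 in the basal libraries against 1433 and 1402 in the luminal libraries. Both luminal libraries were far above both basal libraries and close to each other, and the means were 111 ± 46.7 and 1418 ± 21.9 (SD, n = 2), a 12.8-fold ratio. The log2 difference, luminal minus basal, was 3.73 with a standard error of 0.44 (limma, values plus 1). These values rest on an estimated 23, 12, 74 and 45 reads. Among the 12544 kept genes with a mean of 100 or more over the 4 libraries, this difference was the 127th largest towards luminal cells, and among all 18737 genes kept it was the 545th.

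Atp6v1c1, the broadly expressed paralog, had values of 476, 325, 736 and 467. The groups overlapped, since luminal replicate 2 lay below basal replicate 1. The means were 401 ± 107 and 602 ± 190 (SD, n = 2) and the log2 difference was 0.57 with a standard error of 0.42. Neither luminal library was thus below the basal mean where its paralog was high.

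To compare levels between paralogs, values were divided by the length of the merged annotated exons of each gene. Per kilobase, the ratio of Atp6v1c2 to Atp6v1c1 was 0.779 and 0.618 in the basal libraries, and 5.02 and 7.73 in the luminal ones. Atp6v1c2 made up 43.8% and 38.2% of the C subunit level in the basal libraries and 83.4% and 88.6% in the luminal libraries. The mean share was 41.0% ± 3.96 in basal and 86.0% ± 3.66 in luminal cells (SD, n = 2), a difference of 45.0 percentage points, and the groups did not overlap. As a share of estimated reads, with no length correction, it was 23.2% (95% Wilson interval 16.0 to 32.5) and 19.4% (11.4 to 30.9) in the basal libraries, against 66.1% (56.9 to 74.2) and 75.0% (62.8 to 84.2) in the luminal ones. These intervals cover counting error only.

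The summed level of both C genes per kilobase was 151 and 93.9 in the basal libraries, and 791 and 728 in the luminal ones. The ratio of the group means was 6.20, or 3.95 with no length correction, since Atp6v1c1 has the longer exons. The corresponding sums for subunits B, a and d had ratios of 1.24, 1.22 and 0.870. The ratio for the C subunit, which holds the gene the set was chosen on, was thus the largest of these 4.

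**Figure D2:**
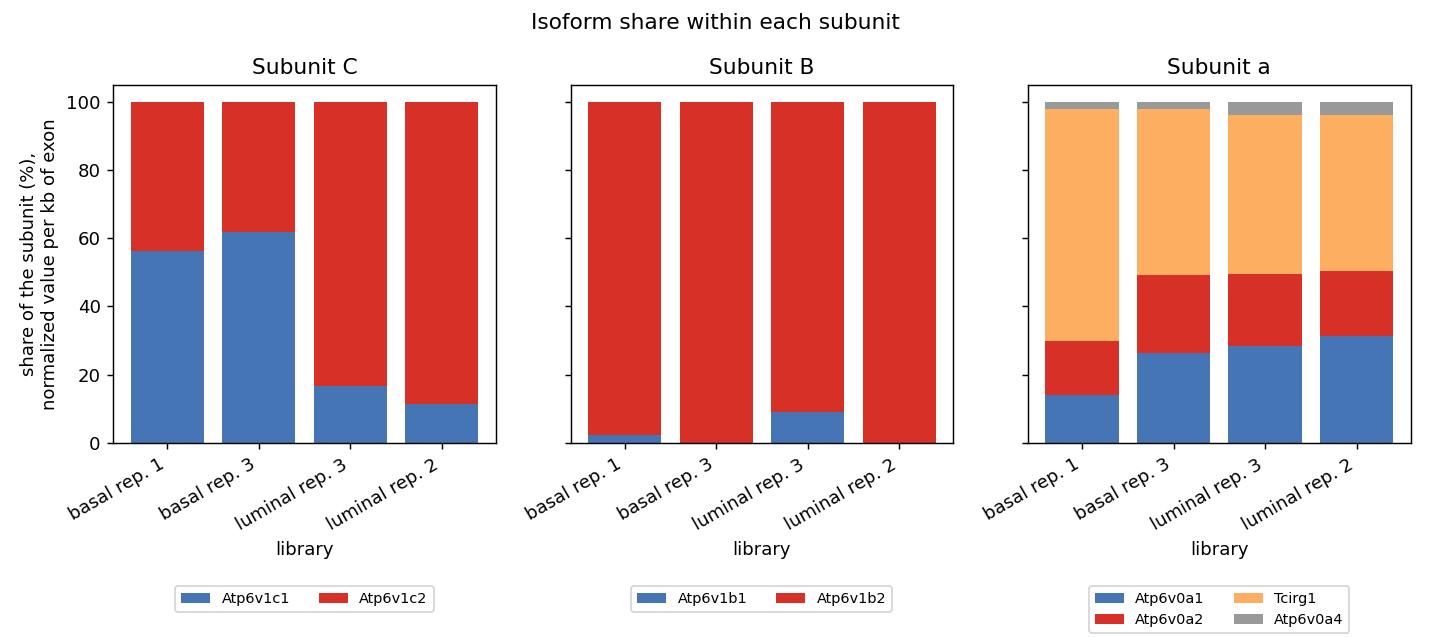
Share of each paralog in the summed level of subunits C, B and a, as a percent of the normalized value per kilobase of exon, with 1 stacked bar for each library. Atp6v1c2 takes 43.8% and 38.2% of subunit C in the basal bars and 83.4% and 88.6% in the luminal bars, while Tcirg1 is the largest part of subunit a in every bar.

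Subunit B was carried almost wholly by the broadly expressed Atp6v1b2 (chromosome 8, 69088646 to 69113711). Its values were 689, 818, 949 and 841. The luminal libraries were both higher, by a log2 difference of 0.25 with a standard error of 0.28, and the gap between the groups was smaller than the spread within either. Atp6v1b1 (chromosome 6, 83742990 to 83758855), the paralog of kidney intercalated cells and the inner ear, had values of 13, 0, 77 and 0, or an estimated 2, 0, 4 and 0 reads. It was thus detected in 1 library of each group and at 0 in the other. About 3 reads is the upper 95% limit for a count of 0. The level at 3 reads would be 19.5 in basal replicate 3 and 93.5 in luminal replicate 2. A difference was thus not detectable at this depth.

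Luminal replicate 3, which held the highest value of Atp6v1b1, also had the highest sum of neuroendocrine and neuronal transcripts. The 10 markers of that list used here summed to 207, 369, 909 and 249. The granule protein gene Chga was at 19, 13, 213 and 0, and the synaptic gene Snap25 at 0, 0, 174 and 0. The gene with the highest mean of the list over the 4 libraries, the neuronal splicing factor Rbfox3, went the other way at 157, 260, 19 and 249. Scg2 and Elavl4 were at 0 in all 4 libraries. The part of such cells in the value of Atp6v1b1 was not tested. In bulk RNA, fewer cells of a type and less RNA per cell cannot be told apart.

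In subunit a, Tcirg1 was the most abundant paralog per kilobase in every library, followed by Atp6v0a1 and Atp6v0a2 in varying order, with Atp6v0a4 lowest. Atp6v0a1 (chromosome 11, 101009452 to 101063719) encodes a form known from synaptic vesicles and other compartments. Its values were 463, 565, 968 and 997. Both luminal libraries were higher than both basal ones, with means of 514 ± 72.1 and 983 ± 20.5 (SD, n = 2), a ratio of 1.91 and a log2 difference of 0.94 with a standard error of 0.29. It was the second largest difference among the genes of the set with an average of 100 or more.

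Atp6v0a2 (chromosome 5, 124628576 to 124724455) encodes the form known from the Golgi and early endosomes. Its values were 526, 500, 736 and 623, so that both luminal libraries were higher, with a log2 difference of 0.40 and a standard error of 0.31. An antisense gene, 4930404A12Rik, shares 8.35% of its 50-base stretches, and the strand setting of the counting is not given in the sources used here. Reads of the pair may therefore be mixed.

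Atp6v0a4 (chromosome 6, 38048483 to 38124586) encodes the form of the apical membrane of kidney intercalated cells. Its values were 50, 32, 97 and 93, or an estimated 8, 5, 5 and 3 reads. Both luminal libraries were higher, with a ratio of 2.32 and a log2 difference of 1.23 with a standard error of 0.83. The gene shares 4.51% of its 50-base stretches with other annotated genes, mainly D630045J12Rik, so that some of these few reads are uncertain. Its share of subunit a was 2.01% and 1.97% in the basal libraries and 3.75% and 3.84% in the luminal libraries. With 3 to 8 reads per library, the 95% Wilson intervals of its share of reads overlapped between the groups, at 0.975 to 3.74% in basal replicate 1 and 1.17 to 9.55% in luminal replicate 2.

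Tcirg1 (chromosome 19, 3896050 to 3907133) encodes the a3 form, known from lysosomes, secretory granules and the osteoclast membrane. Its values were 1572, 734, 1123 and 1028. The 2 basal libraries lay on either side of the luminal pair, and the log2 difference was 0.00 with a standard error of 0.42. Its share of subunit a was 68.2%, 48.9%, 46.9% and 45.9%. The mean share differed by -12.2 percentage points, luminal minus basal. This was -2.48 points without basal replicate 1 and -21.9 points without basal replicate 3.

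Basal replicate 1 also stood apart in macrophage transcripts, cells in which Tcirg1 is known to be expressed. The 12 macrophage markers summed to 2048 there, and to 298, 378 and 544 in the other libraries. All 12 were above 0 in basal replicate 1, whereas 8, 7 and 8 of them were at 0 in the other libraries. Ptprc, which encodes the CD45 antigen excluded in the sort, was at 150, 6, 0 and 0. Mrc1, with the highest mean of the list over the 4 libraries, was at 539, 26, 165 and 233. In basal replicate 3 it was below Cd68 at 182. The part of these cells in the value of Tcirg1 was not tested. Of 8 osteoclast markers, Calcr, Ocstamp, Dcstamp and Oscar were at 0 in all libraries. Acp5 was detected at 106, 123, 174 and 93 and Ctsk, a protease also made by fibroblasts, at 157, 240, 271 and 436. Tnfrsf11a (the receptor RANK, also made by epithelia) was at 382, 175, 271 and 343. It had the highest mean of the list over the 4 libraries, although Ctsk was higher in basal replicate 3 and luminal replicate 2.

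In subunit d, all of the signal came from the broadly expressed Atp6v0d1 (chromosome 8, 105524465 to 105566047). Its values were 720, 715, 562 and 686. Both luminal libraries were slightly lower, with a log2 difference of -0.21 and a standard error of 0.30. The sign turned to 0.10 when the libraries were rescaled to nuclear protein-coding genes. Atp6v0d2 (chromosome 4, 19876841 to 19922605), the form of osteoclasts and kidney, was at 0 in the 4 libraries. For a count of 0 the upper 95% limit is about 3 reads, or a value of 18.8, 19.5, 58.1 and 93.5.

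Per kilobase of exon, the order of the 10 genes in basal cells was Atp6v0d1 (mean level per kilobase 400.2), Tcirg1 (250.5), Atp6v1b2 (142), Atp6v0a1 (78.4), Atp6v0a2 (76.3), Atp6v1c1 (71.5), Atp6v1c2 (51.1), Atp6v0a4 (8.24), Atp6v1b1 (1.48) and Atp6v0d2 (0). The ranges of Atp6v0a1, Atp6v0a2 and Atp6v1c1 overlapped, so the order of their group means was not resolved by 2 libraries. The range of Atp6v1c2 lay below those of Atp6v0a1 and Atp6v0a2. It overlapped that of Atp6v1c1, although Atp6v1c1 was above Atp6v1c2 within each basal library. In luminal cells Atp6v1c2 came first at 652 ± 10.1 per kilobase (SD, n = 2), above Atp6v0d1 at 348 ± 48.9. Tcirg1 (234), Atp6v1b2 (169), Atp6v0a1 (150), Atp6v1c1 (107) and Atp6v0a2 (101) followed, of which the last pair overlapped. Atp6v1c2 thus had rank 7 in basal cells and rank 1 in luminal cells. At these exon lengths, Atp6v0d1, Tcirg1 and Atp6v1b2 followed each other in the same order in both, with ranges that did not overlap. Their order depends on the length used. With no length correction, Tcirg1 was above Atp6v0d1 in every library. The means were then 1153 against 717.5 in basal and 1075.5 against 624 in luminal cells.

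**Figure D3:**
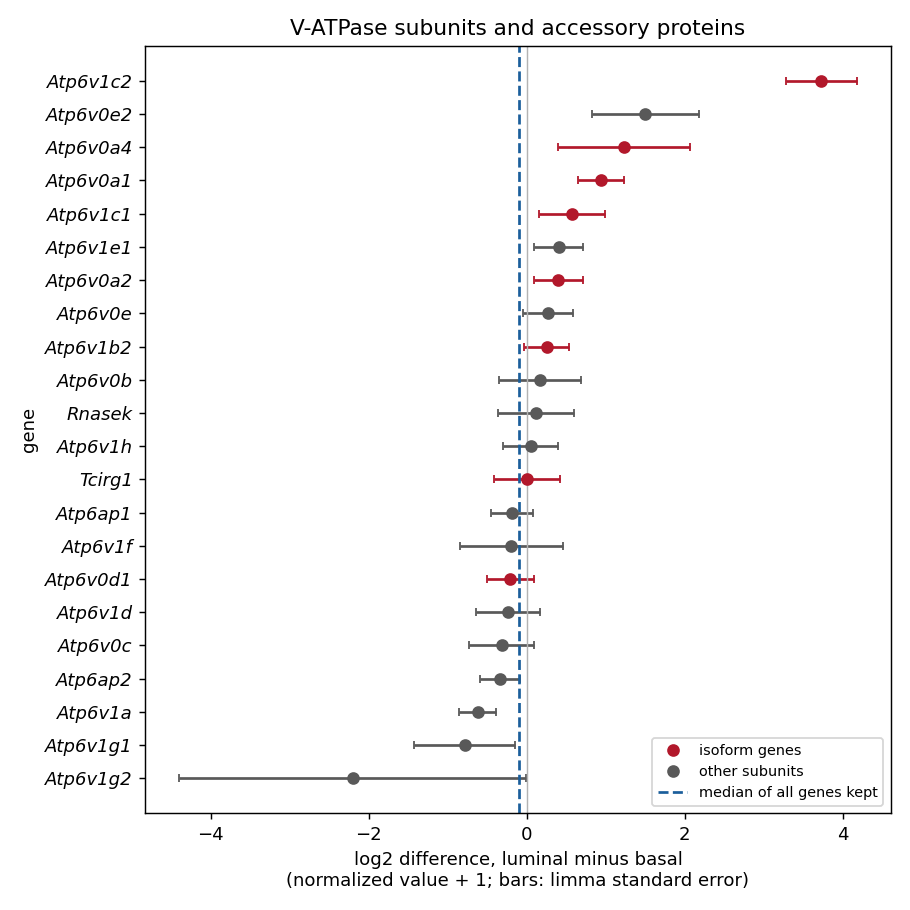
Log2 difference, luminal minus basal, of the kept V-ATPase isoform genes (red) and the other subunits and accessory proteins (grey), after adding 1 to each value, with bars of 1 limma standard error and a dashed line at the median of all genes kept (-0.10). Atp6v1c2 at 3.73 lies apart from all others, of which the highest is Atp6v0e2 at 1.50.

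Of 16 further subunits and accessory proteins, 14 were kept, with a median log2 difference of -0.19 beside -0.10 over all genes kept. None passed an adjusted p of 0.05 (limma, Benjamini-Hochberg), and 1 had an unadjusted p under 0.05, beside 18.5% of all genes kept. This was Atp6v1a, the catalytic A subunit, with values of 1647, 1630, 1104 and 1028. Its log2 difference was -0.62 with a standard error of 0.24 (limma, Benjamini-Hochberg adjusted p = 0.254), and it was -0.31 after rescaling to nuclear protein-coding genes. Both basal libraries were also higher for Atp6ap2, the prorenin receptor, with a log2 difference of -0.34, which was -0.03 after the same rescaling.

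Both luminal libraries were higher for the small V0 subunits Atp6v0e and Atp6v0e2. Atp6v0e2 had values of 175, 65, 329 and 280. Its log2 difference of 1.50 was the largest among the other V0 genes and did not pass (limma, Benjamini-Hochberg adjusted p = 0.318). Atp6v1g2, the neuronal G paralog, had the lowest log2 difference among the other V1 genes, -2.20, with a standard error of 2.19, and Atp6v1h, the regulatory H subunit, the smallest at 0.05. Atp6v1e2 and Atp6v1g3, the testis and kidney forms of subunits E and G, were at 0 in all libraries. Rnasek, a small accessory protein, was the least changed of the other V0 genes at 0.12. Counts of Atp6v0c, Atp6v1f, Atp6v1g1, Atp6v1e2 and Rnasek are uncertain, since they share 10.8%, 11.2%, 19.2%, 24.9% and 62.4% of their 50-base stretches with other annotated genes.

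Among 21 genes of V-ATPase assembly and regulation, 20 were kept, with a median log2 difference of 0.10, and none passed an adjusted p of 0.05 (limma, Benjamini-Hochberg), whereas 3 had an unadjusted p under 0.05, beside 18.5% of all genes kept. Rogdi, a subunit of the RAVE-like complex that reassembles V1 on V0, had values of 119, 91, 562 and 374. Both luminal libraries were higher, with a log2 difference of 2.13 and a standard error of 0.52 (limma, Benjamini-Hochberg adjusted p = 0.0978). The partners Dmxl1, Dmxl2 and Wdr7 overlapped between the groups, with ratios of 1.06, 1.09 and 1.35. Lamtor2, part of the Ragulator complex that docks on the pump, was the least changed of the list at -0.01. Vma21, an assembly factor of V0, was at 1083, 942, 445 and 592, a log2 difference of -0.98 (limma, Benjamini-Hochberg adjusted p = 0.187). Ncoa7, a TLDc protein that binds the pump, was at 1040, 1955, 562 and 623, a log2 difference of -1.27 (limma, Benjamini-Hochberg adjusted p = 0.164).

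**Figure D4:**
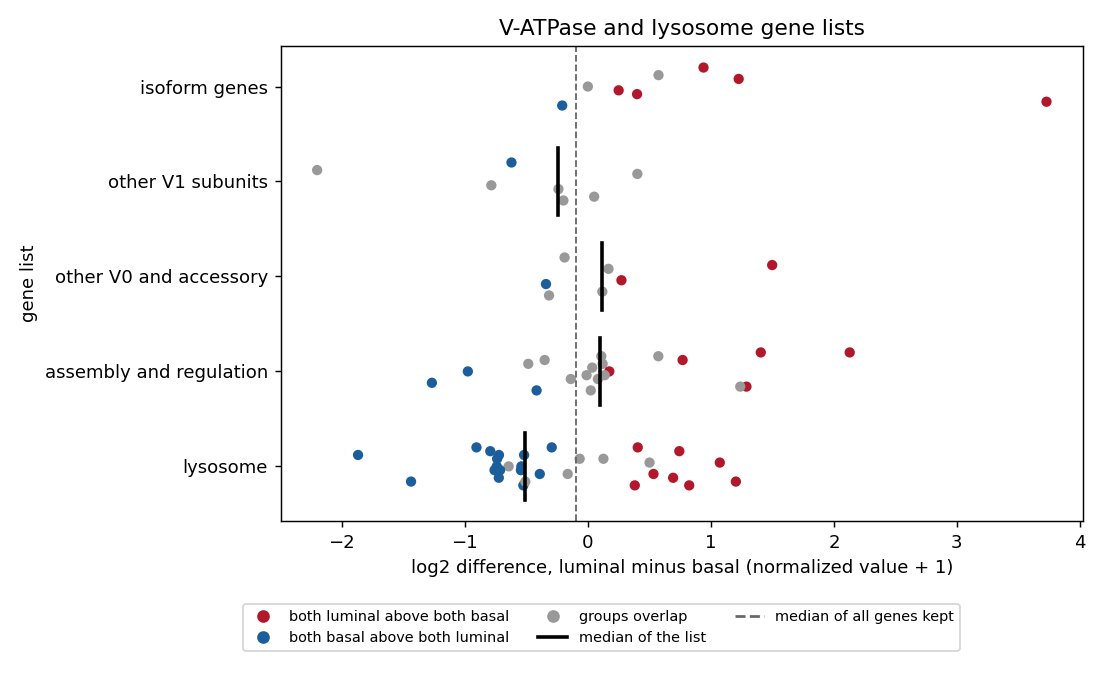
Log2 difference, luminal minus basal, of each kept gene in 5 lists, coloured by whether the 2 groups of libraries overlap, with a black bar at the median of each list other than the isoform genes and a dashed line at the median of all genes kept (-0.10). The lysosome genes have a median of -0.51, and the other V1, other V0 and assembly lists have medians of -0.24, 0.12 and 0.10.

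Genes of the lysosome, the main compartment acidified by the pump, were also measured. All 30 genes of the list were kept, with a median log2 difference of -0.51 beside -0.10 over all genes, and 20 were negative, beside 10133 of the 18737 genes kept. Both basal libraries were higher for 16 (27.3% of all genes) and both luminal libraries for 8 (23.6% of all genes). None passed an adjusted p of 0.05 (limma, Benjamini-Hochberg), and 6 had an unadjusted p under 0.05, beside 18.5% of all genes kept, all with higher basal values (Lamp1, Ctsl, Npc1, Psap, Scarb2 and Tpp1). A p that misses the threshold does not show that the levels were equal. The most negative was Scarb2, the receptor that carries glucocerebrosidase to lysosomes, at 11949, 6697, 1801 and 3334, a log2 difference of -1.87 (limma, Benjamini-Hochberg adjusted p = 0.0846). The highest was Sgsh, a heparan sulfate sulfatase, with a log2 difference of 1.20 (limma, Benjamini-Hochberg adjusted p = 0.398). The least changed was Ostm1, the partner of the lysosomal chloride exchanger, at -0.07. Rescaling to nuclear protein-coding genes moved the median over all genes kept to 0.22, and moved each lysosome gene upwards. Lamp1 and Psap then had log2 differences of -0.41 and -0.40, against -0.72 and -0.71 before. Asah1 turned from -0.29 to 0.02.

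Because Atp6v1c2 and Atp6v0a4 are known from cells that secrete protons, the markers of kidney intercalated and epididymal clear cells were examined. Of 19 genes, 11 were kept. The defining transcription factor Foxi1 and the genes Dmrt2, Rhcg and Oxgr1 were at 0 in all 4 libraries. The anion exchanger Slc26a4 (pendrin) had values of 0, 6, 484 and 779 (limma, Benjamini-Hochberg adjusted p = 0.0659). Car2, a cytosolic carbonic anhydrase, was at 319, 195, 1491 and 686, and the bicarbonate cotransporter Slc4a4 at 251, 377, 1259 and 1028 (limma, Benjamini-Hochberg adjusted p = 0.110 and 0.0703).

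Other genes of the same list had higher basal values. Car12, a membrane carbonic anhydrase, was at 1296, 1117, 194 and 93, a log2 difference of -3.15 (limma, Benjamini-Hochberg adjusted p = 0.0637). The adhesion receptor Adgrf5, at 3282, 1676, 252 and 218, was the most abundant gene of the list in both basal libraries. In both luminal libraries it was below Car2, Slc4a4 and Slc26a4. Adgrf5 was the only 1 of the 11 that passed, with a log2 difference of -3.32 (limma, Benjamini-Hochberg adjusted p = 0.0481). Over all genes, 0.694% passed in either direction and 0.438% towards basal cells. A gene with 1 read in each luminal library passes the filter, so that genes such as Insrr (0, 6, 19 and 31) and Slc26a3 (0, 13, 39 and 31) were kept through the group in which they are higher, and nothing is read from the counts that follow. Of the 11 genes kept, 9 had positive and 2 negative log2 differences, with a median of 1.88, beside 8604 and 10133 of all genes kept. For 6 of them both luminal libraries were higher and for 2 both basal libraries, beside 23.6% and 27.3% of all genes kept. The summed values of the list, 5223, 3596, 4046 and 3239, overlapped between the groups, and Adgrf5 was the largest part of the basal sums.

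The genes whose pattern over the 4 libraries was most like that of Atp6v1c2 were found by the Euclidean distance between log2 values centred on each gene's mean, among kept genes with an average of 100 or more. The nearest was Slc39a8, a zinc and manganese importer, at a distance of 0.110, with values of 326, 188, 3601 and 3366. Bcl2l14, a BCL2 family member, followed at 0.173, the adhesion molecule gene Nectin4 at 0.208, the nuclear envelope protein gene Syne4 at 0.270 and the cation channel gene Trpv3 at 0.287. In each of the 5, both luminal libraries were above both basal libraries, as the measure of likeness requires. The distance was taken over 4 libraries only, and each gene shares the depth of its library with all others.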

How the data were processed

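Sorted basal and luminal prostate cells were profiled by RNA-seq in 2 libraries each. Per the study's methods and labels, the authors mapped reads to GRCm38 with STAR, counted genes with HTSeq, scaled the counts to a common total and deposited this signal per gene as whole numbers. Picard is listed in the submitters' processing notes without a role, and versions are not given in the sources used here. All columns of values were mapped to a sample.

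Reads were estimated from the spacing of low values (up to 60 reads), on which 97.9 to 99.0% of them lay. Whole reads were not accepted as recovered in every library, so no count model was fitted. The values of 533 genes, none of them an isoform gene, lay on another spacing. Estimated reads serve only for depth, intervals and floors of 3 reads. Genes were kept when every library of 1 group reached 10 and its average 20. limma 3.58.1 (R 4.3.3) was fitted to log2 of the value plus 1 over 18737 genes, with a prior variance that follows the mean level and p-values adjusted by Benjamini-Hochberg. With 2 libraries a group, an exact permutation test cannot go below p = 0.333. Since the labels do not tie libraries to separate animals, p-values measure the spread between these libraries, which may be technical. Shares within a subunit used merged exon lengths from GENCODE on GRCm38, in which 49326 of 49671 identifiers were found. Promoters came from RefSeq (GRCm38.p6), and exon sequence from GRCm38. Other tools were Python 3.11.15, numpy 2.4.6, pandas 2.3.3, scipy 1.17.1, biopython 1.88 and matplotlib 3.10.9.

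The isoform genes, lists and tests were chosen with earlier results of these data known. Named were all 10 isoform genes, the lineage markers, and genes of each V-ATPase and lysosome list that passed the test together with the most and least changed. Also named were the gene with the highest mean over the 4 libraries in each list of other cell types, and the 5 genes nearest to Atp6v1c2. Other genes were named after their values were seen. A single marker of the neuroendocrine list is not reported here and was left out of its sum. Alternatives changed the filter, pseudocount, scaling, prior, fold and exon length, and left out each library.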

Additional observations from a re-analysis of the deposited data

How the results depend on the processing

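Atp6v1c2, the gene the set was chosen on in this same contrast, stayed higher in luminal cells under all 13 alternatives, with log2 differences between 3.29 and 4.17. These differences and its adjusted p are therefore a description and no test of the set. Its adjusted p (limma, Benjamini-Hochberg), 0.0469, was under 0.05 in 7 of the 13 and ranged from 0.00359 to 0.228: it was 0.228 without the filter on low values, 0.0584 without the trended prior, and, in fits with a lone library in 1 group whose spread is assumed to be that of the other, 0.0602 and 0.0639 without basal replicates 1 and 3, and 0.205 and 0.159 without luminal replicates 3 and 2. Differences stayed positive under every alternative that gave a value for Atp6v1c1 (0.25 without luminal replicate 3 to 0.90 without luminal replicate 2), Atp6v1b2 (0.13 without basal replicate 1 to 0.56), Atp6v0a1 (0.80 to 1.25), Atp6v0a2 (0.28 to 0.71), for which the scaling to nuclear protein-coding genes gave the highest values, and Atp6v0a4 (0.81 to 1.54), while Tcirg1 ranged from -0.55 to 0.55 and Atp6v0d1 from -0.35 to 0.10. The count of genes called moved from 130 to 0 without the filter on low values (4455 of 27872 had an unadjusted p under 0.05), 678 when both groups had to pass, 532 at an average of 100, 500 and 668 with pseudocounts of 8 and 32, 381 with quantile normalization and 544 without the trended prior; leaving out 1 library gave 312 to 991. The luminal share of calls, 36.9%, became 72.7% with quantile normalization, 49.6% when libraries were scaled by their nuclear protein-coding total, and, in the same fits with a lone library, 1.01% and 9.63% without basal replicates 1 and 3, and 83.8% and 95.5% without luminal replicates 3 and 2. The count past 2-fold moved from 6482 to 14341 without the filter, 3644 when both groups had to pass, 3051 at an average of 100 and 2589 at 4-fold, and was 7145 to 9175 with 1 library left out. The other V-ATPase genes had 0 calls under each alternative. The gain of Atp6v1c2 in share, 45.0 points, was 49.3 with no length correction and 49.6 with the length of the transcript with the longest coding sequence, an alternative chosen after seeing the data (Atp6v1c1: -49.3 and -49.6), and 42.2 to 47.8 with 1 library left out; for Atp6v0a4, 1.80 became 1.52 and 1.44. The cause of these shifts was not tested. No paired analysis was possible because the groups share only 1 replicate number. The planned edgeR and DESeq2 fits on reads were not run. The depth of the luminal libraries limits what can be said of Atp6v1b1, Atp6v0a4 and Atp6v0d2.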
